A study of Mus musculus with 8 samples.

Results

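The transcripts of 8 myeloid cytokine receptor chains were described in sorted mouse bone marrow cells. The members were chosen by gene symbol as the receptors for M-CSF, GM-CSF, G-CSF, IL-3 and IL-6 (Csf1r, Csf2ra, Csf2rb, Csf2rb2, Csf3r, Il3ra, Il6ra and Il6st), and all 8 were among the 20207 genes of the files. Each was also among the 12561 genes whose total over the libraries exceeded 1 RPKM (reads per kilobase of transcript, scaled to the mapped reads of the library), which were the genes tested.

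RNA sequencing was performed on 8 libraries. From normal mice there were 2 of long-term haematopoietic stem cells (LT-HSCs, sorted as CD150+CD48-CD135-KLS+), 1 of short-term HSCs (ST-HSCs, CD150-CD48-CD135-KLS+) and 1 of KLS- progenitors (cKit+, lineage-negative and Sca-1-). From mice with chronic myelogenous leukaemia (CML) there were as many LT-CML, ST-CML and CML-KLS- libraries. According to the study's methods, CML-affected mice carried both Tal1-tTA and TRE-BCR-ABL1. The normal littermates carried Tal1-tTA alone, so that by this account every group carried this driver. By the same methods both were taken equally long after doxycycline had been withdrawn and in the same range of ages, below 6 months. Tal1 regulatory sequence is active in stem and progenitor cells and in some mature blood lineages, and it sets which cells make the oncogene in this model. The methods give the FVB/N background, whereas the labels give C57BL/6 for all libraries, with an age of 2 months for LT-HSC library 1, ST-HSCs and normal KLS- cells and of 6 months for LT-HSC library 2. The labels give no age for the CML libraries. The study also used healthy C57BL/6 mice for metabolite measurements. Whether the normal libraries came from littermates with the driver is therefore not settled. A difference in genotype, age or source of the mice cannot be told apart from CML. The LT-HSC libraries differ in labelled age and so came from different animals, whereas nothing states this for the LT-CML libraries. P-values measure the spread between these libraries, which for LT-CML may be technical.

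Receptors for myeloid cytokines carry signals for survival, division and differentiation. The GM-CSF and IL-3 receptors pair a ligand-binding alpha chain with a shared beta chain, which recruits JAK2 and activates STAT5. Mice have a second beta chain, encoded by Csf2rb2, that works with the IL-3 receptor alpha chain. The G-CSF receptor is a chain that pairs with itself and directs neutrophil production, the M-CSF receptor is a tyrosine kinase of the monocyte lineage, and the IL-6 receptor alpha chain signals through gp130, the product of Il6st. BCR-ABL1 is itself an active tyrosine kinase that acts on STAT5.

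The pair of beta chain genes carried the CML differences described here, and they resemble each other closely enough that reads could be assigned to the wrong one. In mm9 with GENCODE M1, Csf2rb lies on the plus strand of chromosome 15 (chr15:78156420-78184277) and Csf2rb2 beside it on the minus strand (chr15:78112947-78136052). Their coding sequences were identical at 2505 of 2631 aligned positions, or 95.2%. Of the windows of 100 bases, the length of 1 read, 6.97% of those in the Csf2rb transcript and 6.78% of those in the Csf2rb2 transcript also occurred in the other gene. The stretches of 90 bases below come from exon 4, where the coding sequences differed most, and capitals mark the 16 bases at which they differed (82.2% identity).
Csf2rb, chr15:78169328-78169417, plus strand: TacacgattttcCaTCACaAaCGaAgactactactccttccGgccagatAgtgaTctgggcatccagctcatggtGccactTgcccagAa
Csf2rb2, chr15:78124774-78124863, minus strand: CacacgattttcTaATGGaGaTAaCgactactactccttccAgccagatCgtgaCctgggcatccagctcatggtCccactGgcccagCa

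In exon 8, by contrast, a stretch of 90 bases was the same in both genes (chr15:78172088-78172177 on the plus strand in Csf2rb and chr15:78121993-78122082 on the minus strand in Csf2rb2). How reads that match both genes were counted is not given in the sources used here, so the values of both genes carry this uncertainty.
Csf2rb and Csf2rb2: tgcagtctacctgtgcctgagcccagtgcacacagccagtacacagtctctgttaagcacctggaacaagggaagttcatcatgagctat

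Promoters were searched in the 250 bases upstream of the start, taken from RefSeq (GRCm38.p6), for TTCNNNGAA, the letters of a STAT site, and for GAGGAA on either strand, the core of a PU.1 site. Promoters of 6 of the 8 members were examined, and none of Csf1r or Csf2rb was. The promoters of Csf2rb2 and Csf2ra are shown because these genes had values that did not overlap between CML stem and normal stem libraries, in opposite directions. Il6st values did not overlap either, and its promoter held neither motif. That of Csf2rb2 held 1 match to TTCNNNGAA, which began 15 bases before the start, and 1 match to GAGGAA on the other strand, 167 bases before the start. That of Csf2ra held 2 adjacent matches to GAGGAA and none to TTCNNNGAA. Those of Csf3r and Il6ra, not shown, also held GAGGAA (1 match each) and no TTCNNNGAA, and that of Il3ra held neither motif. No matches of the 2 motifs overlapped each other. Of the 32851 RefSeq promoters searched, 7.02% held TTCNNNGAA and 23.25% held GAGGAA. Capitals mark the matches, which describe the letters and show no binding.
Csf2rb2, chr15:78305722-78305971, minus strand: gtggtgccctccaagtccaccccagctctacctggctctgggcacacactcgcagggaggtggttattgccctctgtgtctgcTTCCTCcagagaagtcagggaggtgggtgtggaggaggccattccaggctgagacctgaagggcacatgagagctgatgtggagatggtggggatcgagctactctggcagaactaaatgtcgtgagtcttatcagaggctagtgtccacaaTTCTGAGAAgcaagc
Csf2ra, chr19:61228419-61228668, minus strand: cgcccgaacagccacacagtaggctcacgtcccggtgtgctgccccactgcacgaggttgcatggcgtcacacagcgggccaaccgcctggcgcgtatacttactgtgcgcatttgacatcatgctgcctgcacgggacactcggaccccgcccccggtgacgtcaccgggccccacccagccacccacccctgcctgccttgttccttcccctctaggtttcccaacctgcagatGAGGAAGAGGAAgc

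The depth recovered from the steps between low RPKM values was 17.8 to 23.9 M reads per library (M as in Mb). LT-HSC library 2 and LT-CML library 2 stood apart from their replicates in neutrophil transcripts, with a summed RPKM of 4280 and 3860 over 12 neutrophil markers against 618 and 331. Different genes led the 2 sums. The highest were S100a8 (1802 RPKM) and S100a9 (856 RPKM) in LT-HSC library 2, and Mpo (1291 RPKM) and Ela2 (1120 RPKM) in LT-CML library 2. Because the populations were sequenced in bulk, fewer cells of a type and less RNA per cell cannot be told apart. Among the sorting markers, Slamf1 (CD150) was 10.7 to 35.5 RPKM in the LT libraries and 1.11 to 2.87 RPKM in the ST libraries, and Ly6a (Sca-1) was 72.4 to 152 RPKM in the stem libraries and 8.16 and 11.7 RPKM in the KLS- libraries. Flt3 (CD135) went against the gate, since its transcript was at 61.6 and 71.6 RPKM in the ST libraries, which were sorted as CD135-.

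RPKM is a level per length of transcript, so members could be ranked within a library. Csf3r was the highest member in each of the 8 libraries. In both LT-HSC libraries it was followed by Csf2ra, Csf2rb, Il6st and Csf2rb2, and Csf2ra and Csf2rb were neighbours that did not keep this order elsewhere. Csf2rb was the second member in the ST-HSC library and in each CML library, and Csf1r took that place in the normal KLS- library. The lowest member was Csf1r in 4 libraries (both LT-HSC libraries, LT-CML library 1 and ST-CML), and Il6ra, Csf2rb2, Il3ra and Csf2ra were each the lowest in 1 other library. The plot of receptor transcripts in each library shows these levels.

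**Figure D1:**
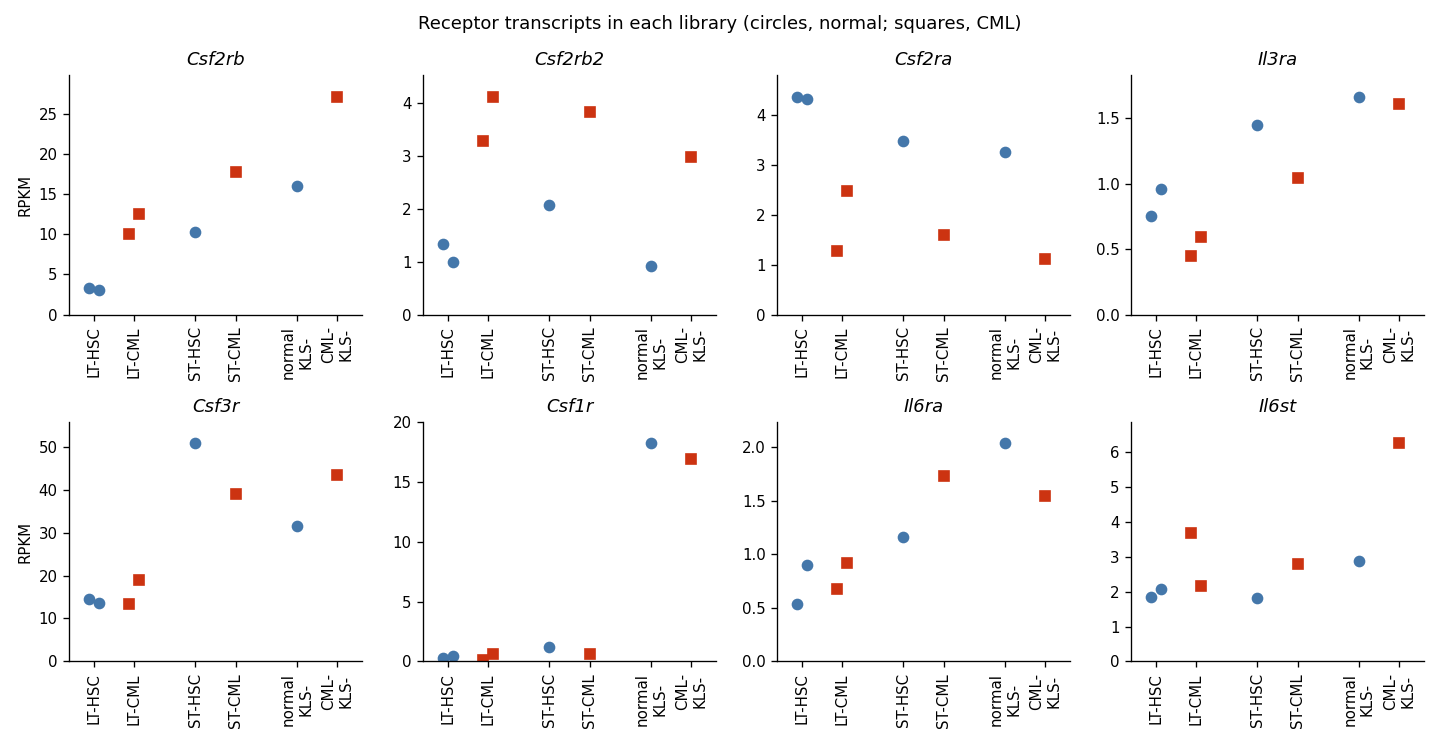
RPKM of the 8 receptor genes (vertical axes from 0, with a scale of their own in each panel) in the 8 libraries, with circles for normal and squares for CML libraries and 1 point for each library. Csf2rb and Csf2rb2 were higher in CML than in normal libraries of the same population, Csf2ra was lower, and Csf1r was above 16 RPKM in both KLS- libraries.

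Csf2rb encodes the common beta chain shared by the receptors for GM-CSF, IL-3 and IL-5. Its level was 3.36 and 3.04 RPKM in the LT-HSC libraries and 10.1 and 12.5 RPKM in the LT-CML libraries. The ST-HSC and ST-CML libraries held 10.3 and 17.8 RPKM, and the normal KLS- and CML-KLS- libraries 16.1 and 27.2 RPKM. The CML library was higher in each population, and the LT libraries did not overlap, but ST-HSCs lay just above LT-CML library 1. Mean RPKM was 3.54 times as high in LT-CML as in LT-HSC cells, and on the log2(RPKM + 1) scale, which understates the change of low genes, Csf2rb rose by 1.55 (SE 0.20, adjusted p = 0.0136 from limma, n = 2 and 2). The ratio of RPKM was 1.73 in ST and 1.69 in KLS- cells, where 1 library was set against 1 and no test was made.

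When LT and ST cells were pooled (3 CML stem libraries against 3 normal HSC libraries), Csf2rb differed by 1.28 on the log2 scale (SE 0.40) and did not pass the threshold (limma, adjusted p = 0.215). It passed with LT or ST as a covariate, in the fit of all 8 libraries and without the ST-HSC library, and the adjusted p over its 15 alternatives lay between 0.00632 and 0.537. In the LT comparison, the difference was positive in 16 of 16 alternatives, with an adjusted p from 0.00391 to 0.216, and it passed in 11. Leaving out any 1 of the 4 LT libraries, which left a single library on that side, meant that neither Csf2rb nor Csf2rb2 passed, and neither passed without a minimum on RPKM.

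Csf2rb2 encodes the beta chain specific to IL-3. It was at 1.34 and 0.987 RPKM in LT-HSC, 2.07 RPKM in ST-HSC and 0.908 RPKM in normal KLS- cells. In CML it was at 3.28 and 4.11 RPKM in LT-CML, 3.82 RPKM in ST-CML and 2.96 RPKM in CML-KLS- cells. All 4 CML libraries lay above all 4 normal libraries. Csf2rb2 rose in LT-CML against LT-HSC cells by 1.12 on the log2 scale (SE 0.20, adjusted p = 0.0434 from limma), a ratio of mean RPKM of 3.18. It was also the member called in the pooled comparison, where it rose by 0.96 (SE 0.19, adjusted p = 0.0484 from limma), from a mean of 1.46 ± 0.55 RPKM (SD, n = 3) to 3.74 ± 0.42 RPKM (SD, n = 3). Both adjusted p-values were close to the threshold. Its direction was kept in each alternative, but it passed in 9 of 16 for LT cells (adjusted p from 0.0238 to 0.320 in limma) and in 7 of 15 for pooled stem cells (0.00323 to 0.193), and in the pooled comparison it remained past the threshold only when the library left out was ST-HSC. These levels rested on 85 to 346 reads per library.

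Csf2ra encodes the GM-CSF receptor alpha chain, which binds the ligand (chr19:61300305-61304321, minus strand, mm9). It was at 4.37 and 4.33 RPKM in LT-HSC, 3.48 RPKM in ST-HSC and 3.26 RPKM in normal KLS- cells. In CML the levels were 1.28 and 2.47 RPKM in LT-CML, 1.60 RPKM in ST-CML and 1.12 RPKM in CML-KLS- cells. All 4 CML libraries lay below all 4 normal libraries, in the direction opposite to the beta chains. The differences were -0.93 on the log2 scale in LT cells (SE 0.24, adjusted p = 0.139 from limma) and -0.88 in pooled stem cells (SE 0.19, adjusted p = 0.0681 from limma), so neither passed the threshold. In the pooled comparison Csf2ra passed with LT or ST as a covariate, in the fit of all 8 libraries and without LT-CML library 2 (adjusted p from 0.00723 to 0.240 over 15 alternatives), and its sign was kept in all of them. The values rested on 37 to 191 reads.

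Il3ra encodes the alpha chain of the IL-3 receptor (chr14:15179009-15188004, plus strand, mm9). Its level was 0.755 and 0.961 RPKM in LT-HSC against 0.451 and 0.591 RPKM in LT-CML cells, 1.45 against 1.04 RPKM in ST-HSC and ST-CML cells, and 1.66 against 1.61 RPKM in normal and CML KLS- cells. LT libraries did not overlap, yet the log2 difference of -0.29 (SE 0.16) was not significant (adjusted p = 0.586 from limma). Only 13 to 47 reads per library stood behind Il3ra, with a counting error of up to 27.7% in the lowest library.

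The ratio of beta to alpha chain transcripts, computed after the values were seen, gathers these opposite differences. In normal cells Csf2rb RPKM divided by Csf2ra RPKM was 0.769 and 0.703 in LT-HSC, 2.95 in ST-HSC and 4.93 in KLS- cells. In CML it was 7.88 and 5.08 in LT-CML, 11.1 in ST-CML and 24.2 in CML-KLS- cells. The alpha chain transcript was thus the more abundant of the pair only in the LT-HSC libraries, and each CML library had a higher ratio than each normal library. The gap was small between LT-CML library 2 (5.08) and the normal KLS- library (4.93), where Csf2ra rested on 83 and 122 reads. How many pairs of genes separate in this way was not counted. The ratio of Csf2rb to Csf2rb2 did not separate in that way. It was 2.51 and 3.08 in LT-HSC and 3.07 and 3.05 in LT-CML cells, and among the KLS- libraries it was 17.7 in normal and 9.16 in CML cells.

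**Figure D2:**
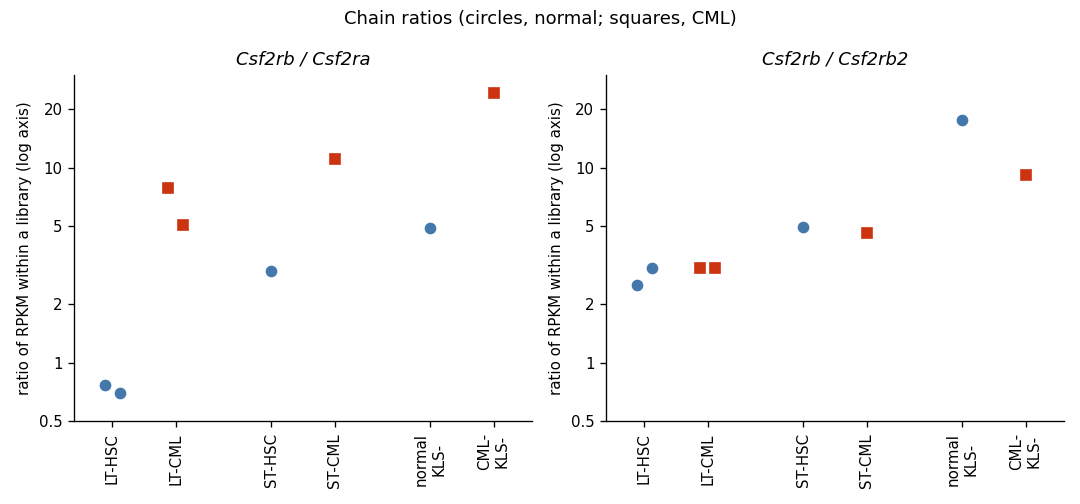
Ratio of Csf2rb to Csf2ra RPKM (left) and of Csf2rb to Csf2rb2 RPKM (right) within each library on log axes, with circles for normal and squares for CML libraries. On the left the CML libraries lie between 5.08 and 24.2 and the normal libraries between 0.703 and 4.93, whereas on the right the LT-HSC and LT-CML libraries lie between 2.51 and 3.08.

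Csf3r encodes the G-CSF receptor (chr4:125701794-125722219, plus strand, mm9). It was at 14.6 and 13.7 RPKM in LT-HSC and at 13.3 and 19.0 RPKM in LT-CML cells, so that the LT groups overlapped. ST-HSC and ST-CML cells had 50.8 and 39.0 RPKM, and normal KLS- and CML-KLS- cells had 31.7 and 43.6 RPKM. Csf3r differed by 0.16 on the log2 scale in LT cells (95% interval -0.35 to 0.67, adjusted p = 0.867 from limma) and by -0.02 in pooled stem cells (95% interval -1.29 to 1.25, adjusted p = 0.993 from limma). The sign of the pooled difference changed under quantile and upper-quartile scaling. LT-HSC library 2, with a neutrophil marker sum of 4280 RPKM against 618 RPKM in library 1, had almost the same Csf3r level. The ST-HSC library had the lowest marker sum (256 RPKM over 12 markers, with Cebpe at 0) and the highest Csf3r. Among the normal HSC libraries, however, it was the highest in the precursor markers Mpo (95.5 RPKM) and Prtn3 (135.5 RPKM). In the precursor markers Ela2 (9.72 RPKM) and Ctsg (2.02 RPKM) it was the lowest of them. The part of these markers in the Csf3r level was not tested.

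Csf1r, the M-CSF receptor, lies on chromosome 18. It was at 0.323 and 0.454 RPKM in LT-HSC, 0.0748 and 0.624 RPKM in LT-CML, 1.21 RPKM in ST-HSC and 0.651 RPKM in ST-CML cells. The normal KLS- and CML-KLS- libraries had 18.2 and 16.9 RPKM. Normal and CML LT libraries overlapped, and the log2 difference was -0.07 (95% interval -0.62 to 0.48, adjusted p = 0.956 from limma). LT-CML library 1 held about 6 reads of Csf1r, with a counting error of 40.8%, and the stem libraries held at most 88 reads, against at least 1166 reads in the KLS- libraries.

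Il6ra, which encodes the IL-6 binding chain (chr3:89673246-89717084, minus strand, mm9), was at 0.540 and 0.902 RPKM in LT-HSC and 0.679 and 0.920 RPKM in LT-CML cells. It was at 1.16 and 1.73 RPKM in ST-HSC and ST-CML cells and at 2.04 and 1.55 RPKM in normal and CML KLS- cells. CML and normal libraries overlapped in LT cells, and the log2 difference of 0.07 there had a 95% interval from -0.36 to 0.49 (adjusted p = 0.941 from limma).

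Il6st, which encodes gp130 (chr13:113265216-113297068, plus strand, mm9), was at 1.85 and 2.09 RPKM in LT-HSC and 3.68 and 2.18 RPKM in LT-CML cells. ST-HSC and ST-CML cells had 1.83 and 2.81 RPKM, and normal KLS- and CML-KLS- cells had 2.87 and 6.26 RPKM. The 3 CML stem libraries lay above the 3 normal HSC libraries, but LT-CML library 2 exceeded LT-HSC library 2 by a small margin. The pooled log2 difference of 0.40 (SE 0.17) did not pass the threshold (adjusted p = 0.408 from limma), and in an exact two-sided permutation test Il6st, Csf2ra and Csf2rb2 each had p = 0.1, the smallest that 3 against 3 libraries allow.

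Across all genes tested, 0.939% rose in LT-CML against LT-HSC cells, and among the members 2 of 8 did (Csf2rb and Csf2rb2). In the pooled comparison 1.18% of genes rose, and 1 of 8 members did. No member fell in either comparison, where 0.788% and 1.16% of genes fell, although at an unadjusted p under 0.05 in limma 1 member, Csf2ra, was lower in both. CML stem libraries all lay above normal HSC libraries for 6.92% of genes and for 2 of 8 members (Csf2rb2 and Il6st), and all lay below for 11.4% of genes and for 1 member (Csf2ra). CML exceeded normal in LT (without overlap), ST and KLS- cells for 9.41% of genes and for 3 members (Csf2rb, Csf2rb2 and Il6st), and the opposite held for 14.9% of genes and for 2 members (Csf2ra and Il3ra). The median log2 difference of the members in LT cells was 0.11, against -0.01 over all genes tested. These comparisons share libraries.

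**Figure D3:**
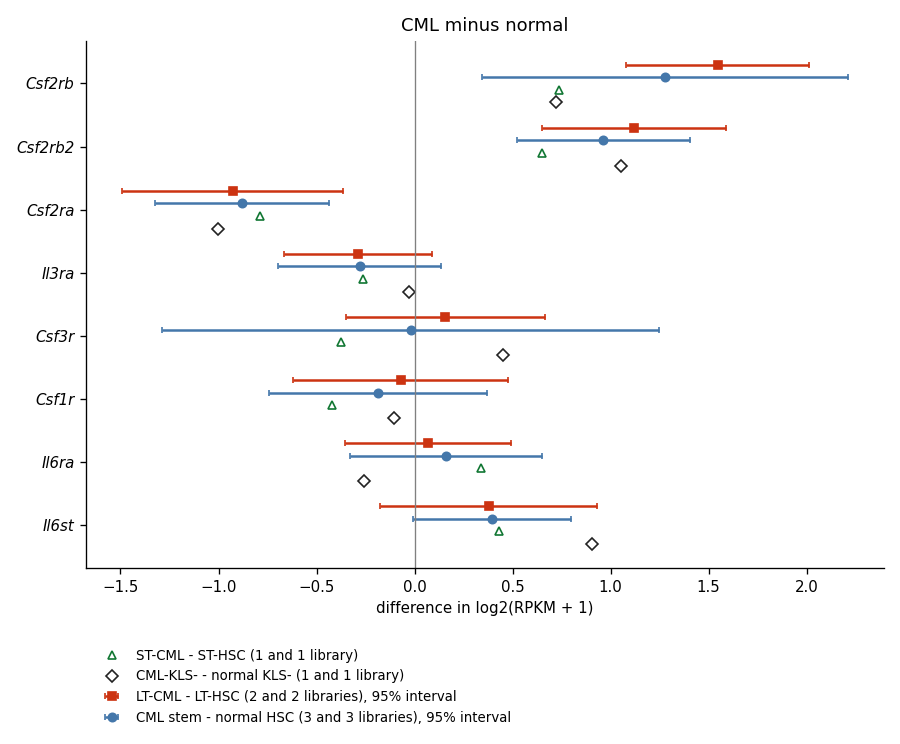
Difference between CML and normal cells in log2(RPKM + 1) for each receptor gene, with filled points and 95% intervals from limma for LT cells (2 and 2 libraries) and for pooled stem cells (3 and 3 libraries), and open points for ST and KLS- cells (1 and 1 library, no error). The LT value is 1.55 for Csf2rb, 1.12 for Csf2rb2 and -0.93 for Csf2ra, and the intervals of Csf1r, Csf3r, Il6ra, Il6st and Il3ra include 0.

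In the pairs without replicates, a change of 2-fold on RPKM + 1 was reached by no member in ST cells, where 2.03% of genes were higher and 2.01% lower by that size. Between the KLS- libraries Csf2rb2 was higher (log2 difference 1.05) and Csf2ra was lower (-1.0), against 1.85% and 1.39% of genes. Il6st followed with a log2 difference of 0.91 and Csf2rb with 0.72. Whether the CML difference in LT cells differed from that in KLS- cells was tested in the fit of all 8 libraries. No member passed, against 0.0239% of genes (3 genes), and the unadjusted p was below 0.05 for 1 member, Csf2rb (adjusted p = 1.0 from limma). For Csf2rb the LT difference was larger by 0.82 (95% interval 0.01 to 1.63), and the intervals of the other members included 0, the narrowest being -0.91 to 0.39 for Il3ra. Intervals of this width do not show that the differences were alike. The KLS- libraries had no replicates and were taken to vary like the LT libraries.

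LT-CML cells also differed from LT-HSCs in a marker of the gate. Flt3, a receptor tyrosine kinase that the sort selected against at the cell surface, was at 3.95 and 2.52 RPKM in LT-HSC and 11.9 and 19.2 RPKM in LT-CML cells (log2 difference 1.95, SE 0.28, adjusted p = 0.0184 from limma), while the ST libraries had 61.6 and 71.6 RPKM. It passed in 11 of 16 alternatives (adjusted p from 0.00505 to 0.346 in limma). Cd48, which the sort also selected against, was at 10.5 and 5.17 RPKM in LT-HSC and 16.8 and 29.5 RPKM in LT-CML cells (1.47, SE 0.35, adjusted p = 0.109 from limma). Slamf1, which marks LT against ST cells, was at 14.3 and 10.7 RPKM in LT-HSC and 35.5 and 25.4 RPKM in LT-CML cells. Markers of basophils and mast cells, which also express Csf2rb, summed over 7 genes to 9.40 and 5.78 RPKM in LT-HSC and to 6.14 and 16.9 RPKM in LT-CML cells. None of the 7 passed in LT cells in limma, and 1, Fcer1a, had an unadjusted p under 0.05. Fcer1a was at 0.538 and 1.675 RPKM in LT-HSC and 3.534 and 4.555 RPKM in LT-CML cells (1.31, SE 0.28, adjusted p = 0.0812 from limma). Of 10 monocyte markers tested, none passed in LT cells, and 1, Cd14, rose in the pooled comparison (2.35, SE 0.42, adjusted p = 0.033 from limma), against 1.18% of genes. Their median log2 difference was -0.17 in the pooled comparison and -0.33 in LT cells. At an unadjusted p under 0.05 in limma, Ccr2 (-0.62) and Ms4a6c (-0.72) were lower in pooled stem cells. In LT cells Lyz2 (-0.84) and Ly86 (-1.14) were lower and Cd14 (1.97) was higher at that level. The neutrophil marker sum was 331 RPKM in LT-CML library 1 and 3860 RPKM in LT-CML library 2, beside 10.1 and 12.5 RPKM of Csf2rb. The part of these markers in the beta chain difference was not tested.

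Stage of differentiation was compared with disease as a covariate. Between KLS- and LT cells (2 and 4 libraries), 6 of 8 members rose and none fell (0 were lower at an unadjusted p under 0.05 in limma), against 20.8% of genes that rose and 25.5% that fell. Csf1r rose most, by 3.78 on the log2 scale (SE 0.18, adjusted p = 1.08e-05 from limma). It was followed by Csf2rb (1.61, SE 0.22), Csf3r (1.25, SE 0.20), Il6ra (0.67, SE 0.16), Il3ra (0.65, SE 0.13) and Il6st (0.65, SE 0.19), with adjusted p-values from 0.000632 to 0.0236 in limma. Csf2ra differed by -0.37 (adjusted p = 0.120) and Csf2rb2 by -0.21 (adjusted p = 0.316) and did not pass in limma. The median difference was 0.66 for the members and -0.07 for all genes tested. Both KLS- libraries lay above all 6 stem libraries for 2 of 8 members, Csf1r and Il3ra, and for 21.9% of genes.

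These stage differences did not rest equally on both KLS- libraries. Csf1r, Csf2rb and Csf3r passed in 16 of 16 alternatives. Without the CML-KLS- library Il3ra and Il6st no longer passed, and without the normal KLS- library Il6ra did not. Il6st also failed to pass without the disease term, without a minimum on RPKM and with upper-quartile scaling. Without LT-CML library 1, Csf2ra passed as lower in KLS- cells (adjusted p = 0.0376 from limma).

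Between ST and LT cells (2 and 4 libraries), Csf3r rose by 1.51 (SE 0.20, adjusted p = 0.00466 from limma) and Csf2rb by 1.02 (SE 0.22, adjusted p = 0.0321 from limma), so that 2 of 8 members rose and none fell, against 2.13% and 2.74% of genes. At an unadjusted p under 0.05 in limma 0 members were lower. For Il3ra (0.41), Il6ra (0.47) and Csf1r (0.50) the differences were positive, with adjusted p-values of 0.109, 0.142 and 0.177 in limma. Il6st differed by -0.04 and Csf2ra by -0.18. Neither Csf3r nor Csf2rb passed without the ST-HSC library, and Csf2rb also did not pass without the ST-CML library, LT-HSC library 1 or LT-CML library 1.

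**Figure D4:**
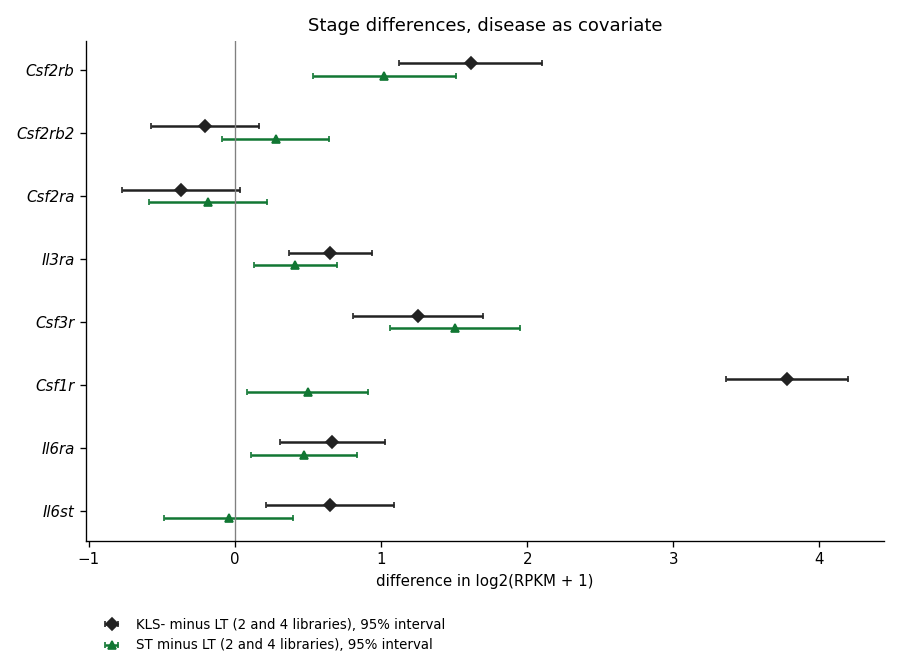
Difference of KLS- (diamonds) and ST (triangles) from LT cells in log2(RPKM + 1) for each receptor gene, with 95% intervals from limma and disease as a covariate (2 and 4 libraries). Csf1r stands at 3.78 in KLS- cells and 0.50 in ST cells, whereas Csf3r is at 1.25 in KLS- and 1.51 in ST cells.

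Markers of several blood lineages moved with the KLS- difference. Over 11 monocyte markers the summed RPKM was 165 to 343 in the stem libraries and 529 and 592 in the KLS- libraries, and 8 of the 10 tested rose. Lyz2 made up most of each stem sum and went the other way. It was at 117.9 to 314.6 RPKM in the stem libraries and at 116.8 and 112.6 RPKM in the KLS- libraries (-0.65, SE 0.26, adjusted p = 0.0693 from limma). The macrophage genes C1qa and C1qb stayed below 0.5 RPKM in each library, and C1qa was at 0 in LT-CML library 2 and in CML-KLS- cells. Over 12 neutrophil markers the sum was 256 to 4280 in the stem libraries and 13086 and 21279 in the KLS- libraries, while 5 of 12 rose and 1 fell. Those that rose were the precursor genes Ela2, Mpo, Prtn3, Ctsg and Cebpe, and the granule gene Ltf fell by 3.03. The 7 basophil and mast cell markers summed to 5.78 to 50.8 RPKM in the stem libraries and to 126 and 117 RPKM in the KLS- libraries, and 5 of 7 rose. The 7 erythroid markers summed to 28.6 to 106 RPKM and to 864 and 1872 RPKM, and 4 of the 6 tested rose. All 5 megakaryocyte markers fell, and of 5 lymphoid markers tested 1 rose and 0 fell. Of all genes, 20.8% rose and 25.5% fell. Their part in the receptor differences was not tested.

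Transcription factors of myeloid cells gave the setting of the stage differences. Of 10 factors, 6 rose and 2 fell in KLS- against LT cells, against 20.8% and 25.5% of all genes, and 1 of the 6, Gata1, passed in only 6 of 16 alternatives. Irf8, a factor of monocyte progenitors, rose by 3.89 (SE 0.19), Cebpe, a factor of granulocyte maturation, by 2.15 (SE 0.42) and Cebpa by 1.84 (SE 0.25), while Gata2 fell by 2.45 (SE 0.24). None of the 10 passed in limma in either CML comparison, and 1 (Gfi1) had an unadjusted p under 0.05 in each.

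Most ligands of these and related receptors were low in the sorted cells. Of 12 ligand genes, 8 were below 1 RPKM in each stem library and 6 passed the minimum on RPKM. Il3 was listed at 0 in each library, and Csf3 was above 0 only in LT-CML library 2 (0.0403 RPKM). Csf2, the GM-CSF gene, was at most 0.146 RPKM. No ligand passed in either CML comparison, and at an unadjusted p under 0.05 in limma only 1 was lower in each, Lif. It was at 0.845 and 0.540 RPKM in LT-HSC and 0.0842 and 0.0434 RPKM in LT-CML cells (-0.66, SE 0.15, adjusted p = 0.0903 from limma). In KLS- against LT cells Osm, which signals through gp130, rose by 1.39 (SE 0.21), Clcf1 fell by 1.07 (SE 0.23) and Il11 by 0.32 (SE 0.10, adjusted p = 0.0294 from limma), a call that Il11 kept in 8 of 15 alternatives.

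Of 18 other cytokine and chemokine receptors, 17 were tested. Flt3 was the only one called in LT-CML against LT-HSC cells, where 0.939% of all genes rose. None was called in the pooled comparison, where limma gave 0 with an unadjusted p under 0.05. In KLS- against LT cells 3 rose and 5 fell, shares near the 20.8% and 25.5% of all genes, with Ifngr1 (1.86, SE 0.20) and Cxcr4 (1.47, SE 0.31) higher. Il27ra, whose product pairs with gp130, fell by 1.82 (SE 0.18). In ST against LT cells 4 rose and 1 fell, against 2.13% and 2.74% of all genes. Among those that rose were Flt3 (3.04, SE 0.38) and Il1r1 (1.20, SE 0.18), and Epor fell by 1.19 (SE 0.17).

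Among 23 signalling partners of the receptors none was called by limma in either CML comparison, and 4 in LT cells and 2 in pooled stem cells had an unadjusted p under 0.05. In KLS- against LT cells 4 rose and 7 fell, shares near those of all genes (20.8% and 25.5%). Pik3r1, Jak3 and Jak1 fell by 1.12 (SE 0.18), 1.03 (SE 0.20) and 0.98 (SE 0.13), and Fes, a kinase of myeloid cells, rose by 1.33 (SE 0.19).

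The feedback inhibitors of cytokine signalling comprised 4 genes. Cish, a target of STAT5, was at 10.8, 12.8 and 8.25 RPKM in the 3 normal HSC libraries and at 28.9, 19.8 and 23.3 RPKM in the 3 CML stem libraries, without overlap. It rose by 1.11 in the pooled comparison (SE 0.20, adjusted p = 0.0366 from limma), which it passed in 8 of 15 alternatives. Cish was the only 1 of the 4 called there, against 1.18% of all genes that rose. Socs2, another target of STAT5, was at 2.28 to 6.63 RPKM in normal HSC and 9.01 to 12.1 RPKM in CML stem libraries (1.29, SE 0.30, adjusted p = 0.0915 from limma). In LT cells alone none of the 4 passed in limma, and 2 had an unadjusted p under 0.05, Cish (0.97, adjusted p = 0.119) and Socs2 (1.01, adjusted p = 0.222). In KLS- against LT cells 3 of the 4 fell, against 25.5% of all genes. Cish fell by 3.05 (SE 0.19), Socs2 by 2.48 (SE 0.37) and Socs3 by 1.74 (SE 0.20). Socs1 differed by -0.18 (adjusted p = 0.181 from limma).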

How the data were processed

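RNA of sorted bone marrow cells (8 libraries of 6 populations) was prepared by the authors with the SMARTer Ultra Low Input kit (cDNA primed with oligo-dT), sequenced from both ends in reads of 100 bases, and mapped to mm9 with a commercial service. They deposited 1 RPKM value for each gene and library. The gene annotation and counting rule are not given in the sources used here. No column was left out.

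The 8 receptors and the lists of related genes and markers were chosen with earlier results of these data known. Genes named from a list were at most 4, those with the largest change among the genes past the threshold or the most abundant where none passed, and some that the rule selects are not reported here. Flt3, Slamf1, Ly6a, Cd48, Socs1, Gata1, Ela2, Mpo, Prtn3, Ctsg, Ltf, S100a8, S100a9, Cebpe, Lyz2, Cd14, Ccr2, Ms4a6c, Ly86, Fcer1a, C1qa, C1qb, Gfi1, Il3, Csf3, Csf2, Lif, Socs2 and the chain ratios were chosen after their values were seen. The libraries were grouped by their labels. Differences were tested in R 4.3.3 by limma 3.58.1 (lmFit and a trended eBayes) on log2(RPKM + 1). The 12561 genes that summed to more than 1 RPKM were fitted, p-values were two-sided and adjusted over all of them (Benjamini-Hochberg), and the threshold was 0.05. The pooled comparison used the 6 stem libraries without a covariate, the LT comparison and the test between LT and KLS- differences used 1 mean for each of 6 populations, and the stage comparisons used LT, ST and KLS- means with a disease term. These steps were tested on simulated data. Other pseudocounts, RPKM minimums, scalings and covariates were tried, and each library was left out in turn.

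Reads behind a value were estimated with GENCODE M1 exon lengths on mm9. Low values lay on a common step in 69.6% of 5637 low genes (within 0.02 of whole reads), and whole reads were recovered for 6 members, while those of Csf2rb and Csf3r are approximate. Counting errors cover sampling of reads only. Python 3.11 with pandas 2.3.3 and scipy 1.17.1 was used elsewhere. Old symbols were matched through RefSeq synonyms (Il8rb for Cxcr2, Sfpi1 for Spi1), and Ly6g was not used here.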

Additional observations from a re-analysis of the deposited data

Results flagged for a closer look

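For Csf3r and Il6ra the CML and normal libraries differed in opposite directions in ST and KLS- cells. The log2 difference of Csf3r was -0.376 in ST cells and 0.449 in KLS- cells. That of Il6ra was 0.338 in ST cells and -0.255 in KLS- cells. Each value sets 1 library against 1, so the difference between the populations was not tested. The spread between LT replicates on the same scale was 0.25 (SD) for Csf3r and 0.18 for Il6ra.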

How the results depend on the processing

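No paired analysis was possible because only the LT-CML labels carry replicate numbers, and the normal LT libraries are told apart by age. The number of members called in the pooled comparison (1) became 0 with a pseudocount of 0.1, without a minimum on RPKM and with quantile normalization, and 3 with LT or ST as a covariate and in the fit of all 8 libraries with stage and disease terms, and it was 0 to 2 when 1 library was left out. In LT cells the 2 calls became 0 without a minimum and 1 with quantile or upper-quartile scaling (0 to 2 with a library left out). In ST against LT cells the 2 calls became 0 without a minimum and 1 without the disease term (0 to 2), and in KLS- against LT cells the 6 calls ranged from 4 to 7. No member passed in the test between LT and KLS- differences in any of these settings, which could not be fitted without a KLS- library. The cause of these changes was not tested, except that a library left out leaves fewer samples.

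Signs changed only where the difference was not significant. Csf3r in the pooled comparison was 0.0281 with quantile, 0.0628 with upper-quartile scaling and 0.0968 in the fit of all 8 libraries. Quantile normalization gave 0.0901 for Csf2rb2 in KLS- and 0.0081 for Il6st in ST against LT cells. Between the LT and KLS- differences, Csf1r was -0.34 and -0.034 with pseudocounts of 0.1 and 0.5, Csf2rb2 was -0.0081 with 0.1, and Csf2ra was -0.0467 with quantile and -0.00485 with upper-quartile scaling. With 1 library left out, the pooled differences ranged from -0.33 to 0.0368 for Csf1r, -0.43 to 0.57 for Csf3r and -0.0431 to 0.31 for Il6ra. Those in LT cells ranged from -0.37 to 0.23 for Csf1r, -0.0871 to 0.40 for Csf3r and -0.0829 to 0.22 for Il6ra, that of Il6st in ST against LT cells from -0.19 to 0.0382, and those between LT and KLS- differences from -0.26 to 0.33 for Csf1r, -0.23 to 0.38 for Csf2ra and -0.0635 to 0.19 for Csf2rb2.

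In the pairs without replicates, ST values with a pseudocount of 0.1 were -0.80 for Csf1r, 0.85 for Csf2rb2, -0.44 for Il3ra and 0.54 for Il6ra. Quantile normalization gave 0.90 for Csf2rb, and upper-quartile scaling gave 1.01 for Csf2rb, 0.87 for Csf2rb2, -0.0906 for Csf3r and -0.11 for Il3ra. KLS- values were -1.46 for Csf2ra and 1.60 for Csf2rb2 with 0.1, and 1.30 for Csf2rb2 with 0.5. Upper-quartile scaling moved the median of all genes in KLS- against LT cells to -0.21.

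Genes called among all tested moved from 294 to 173 without a minimum, 543 with the covariate, 776 in the fit of all libraries and 115 to 217 with a library left out (pooled), from 217 to 0 without a minimum and 6 to 225 (LT), from 612 to 127 without a minimum, 287 without the disease term and 110 to 718 (ST against LT), from 5823 to between 2879 and 5574 with a library left out (KLS- against LT), and from 3 to between 0 and 59 over all settings (LT against KLS- differences). RPKM without counts, 2 replicates for LT cells and 13 to 47 reads for Il3ra limit what could be detected.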

Other observations

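For each receptor, the genes with the most similar pattern of log2(RPKM + 1) over the 8 libraries were found among about 7519 genes with a maximum of at least 5 RPKM. The libraries share populations, and the correlations describe these 8 libraries only. Csf1r was matched most closely by Pgam1, a glycolytic enzyme (r = 0.997), and Tspo, a mitochondrial outer membrane protein (r = 0.995). Csf3r was matched by Dntt, the terminal transferase of lymphoid progenitors (r = 0.979, 0.0933 to 25.8 RPKM), and Tubb6 (r = 0.977). Il6st was matched by Epx, eosinophil peroxidase (r = 0.984, 0 to 83.0 RPKM), and Slc25a44 (r = 0.962). Csf2rb was matched by Ggta1 (r = 0.972) and Man2b1 (r = 0.963), a lysosomal mannosidase. Csf2rb2 was matched by Zfp868 and Rnf6 (r = 0.979 and 0.978), Csf2ra by Atf3 and Brd2 (r = 0.977 and 0.971), Il3ra by Cfp (r = 0.971), and Il6ra by BC013712 and Fbxw4 (r = 0.961 and 0.952).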
